A study of Mus musculus with 139 samples.

Results

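The measurements concern where transcripts sit in untreated mouse embryonic stem cells (ESCs), read as the difference between the insoluble nuclear fraction and the cytosol. The study fractionated an ESC line, AID-FBEXOSC2 ESCs, in which EXOSC2, a core subunit of the RNA exosome, carries an auxin-inducible degron. Adding the auxin IAA for 4 h degrades the protein, and every untreated group (0 h) carries the same tagged allele, so no library here comes from an untagged line. The cells grew on gelatin in serum and LIF. Mild detergent released the cytosol (cyto), salt, urea and more detergent then released the soluble nucleoplasm (np), and what stayed insoluble was the chromatin and ribonucleoprotein mesh fraction (chrRNP). A whole-cell lysate (wcl) was sequenced beside them. All 4 groups were untreated, held 2 libraries each, and were total RNA from which ribosomal RNA had been depleted. The labels do not say whether the 2 libraries of a group came from separate cultures, so the p-values measure the spread between these libraries, which may be technical.

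The values are FPKM, which count fragments per length of transcript and per library total. Genes were kept as members when they reached an FPKM of 1 or more in 2 or more of the 4 untreated chrRNP and cyto libraries, which left 11893 of the 52885 genes listed. Of these, 10034 reached 1 in at least 1 library of each fraction, 842 in chrRNP alone and 1017 in cyto alone. At the edge of the rule, the coding gene Slc35d1 was kept with a second-highest value of 1.00017 FPKM and Tmem181a was left out with 0.999263 FPKM.

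In a mammalian cell most mRNAs are spliced, exported and translated in the cytoplasm, so the steady-state mRNA pool of a cell is mostly cytoplasmic. Another set of RNAs works where it is made: long noncoding RNAs that build nuclear bodies or act on chromatin, small nucleolar RNAs that guide ribosomal RNA modification, and introns that are still part of unspliced transcripts or have just been cut out. mRNAs of secreted and membrane proteins are a special case, because they are translated on the endoplasmic reticulum (ER), whose membrane continues into the outer nuclear membrane.

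Differences are given as chrRNP minus cyto on the log2(FPKM + 1) scale, which understates the change of genes with low values. Genes are called with limma at a Benjamini-Hochberg adjusted p under 0.05 over all members. On the deposited values, 1744 members (14.7%) were higher in chrRNP and 8675 (72.9%) were lower, and the median member stood at -1.12. Both chrRNP libraries lay above both cyto libraries in 1950 members (16.4%) and below them in 9023 (75.9%). That split depends on the scale. When each library was rescaled to the same median over the genes seen in all 16 libraries of the table, the median moved to 0.04, with 4753 members higher (40.0%) and 4153 lower (34.9%). The small nucleolar RNA class alone held 75.7% and 62.2% of the summed FPKM in the chrRNP libraries and 2.64% and 1.59% in the cyto libraries. Genes between about -1.1 and 0 on the deposited scale are therefore lower than in cyto as a share of the library but at or above the median gene. The 2 chrRNP libraries also differed from each other in scale: coding genes held 6.37% of the summed FPKM in replicate 1 and 13.8% in replicate 2. Lists are described by their counts on both scales, to be read against these shares.

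**Figure D1:**
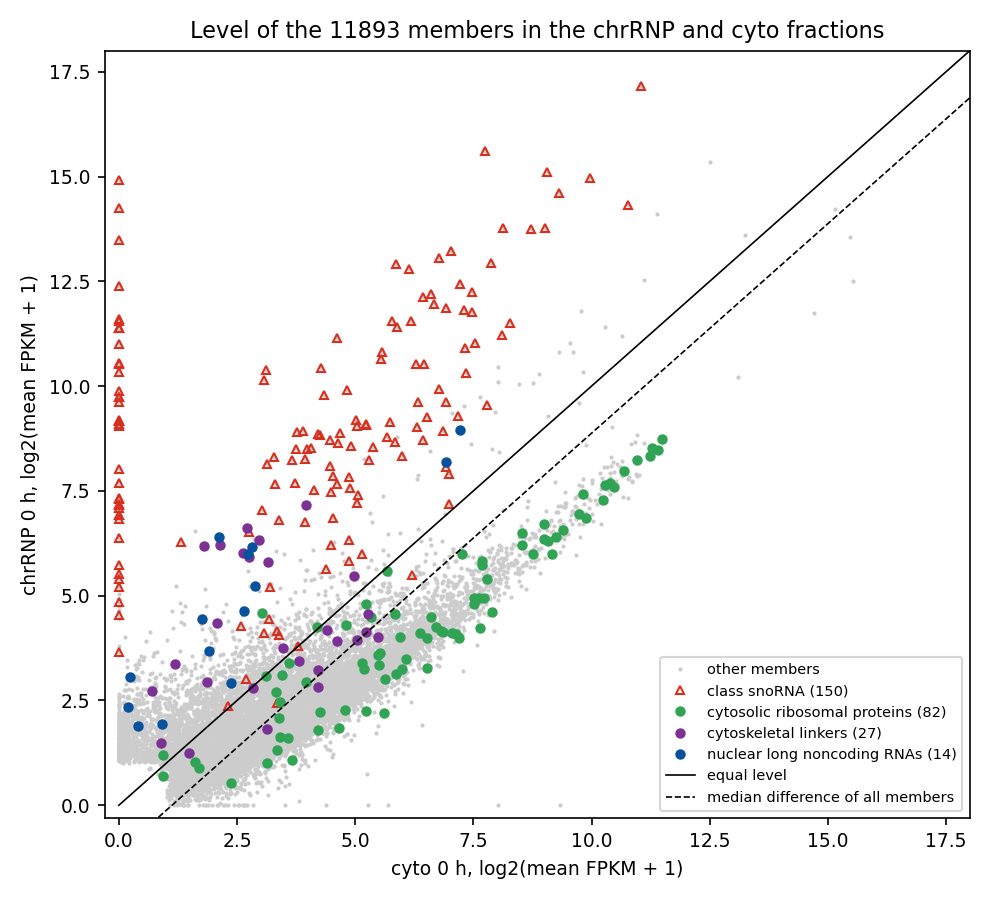
Mean level of each member in the cyto (horizontal) and chrRNP (vertical) fractions of untreated cells, both as log2(mean FPKM + 1), with 2 libraries per mean. The solid line marks equal levels and the dashed line the median difference of -1.12; most snoRNA-class genes lie above the solid line, most cytosolic ribosomal protein genes below the dashed line.

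Markers of the fractions were read first. Neat1 (ENSMUSG00000092274.2, mm10 chr19:5824708-5845478), the scaffold RNA of paraspeckles, had 67.98 and 72.1 FPKM in the chrRNP libraries and 7.31 and 4.70 FPKM in cyto. The np libraries held 59.996 and 47.9 FPKM and the whole-cell libraries 30.8 and 35.2 FPKM. The difference was 3.37 ± 0.20 (SE, n = 2 and 2, adjusted p = 2.30e-07), and the libraries of chrRNP and cyto did not overlap. Malat1 (ENSMUSG00000092341.2, mm10 chr19:5795690-5802672), an abundant RNA of nuclear speckles, had 479.7 and 511 FPKM in chrRNP and 152 and 144 FPKM in cyto, a difference of 1.74 ± 0.19 (SE, n = 2 and 2, adjusted p = 5.79e-06). Its highest values were in np, at 1719.5 and 1569.9 FPKM, above every chrRNP library. For chrRNP minus np its difference was -1.73 ± 0.19 (SE, adjusted p = 1.17e-05). Pou5f1 (mm10 chr17:35506018-35510772), the ESC transcription factor Oct4, had 61.1 and 146 FPKM in chrRNP and 756 and 786 FPKM in cyto, a difference of -3.01 ± 0.35 (SE, n = 2 and 2, adjusted p = 7.23e-06). The summed level of 8 endoderm markers stayed between 0.580 and 2.21 FPKM in the chrRNP, cyto and wcl libraries and that of 9 fibroblast markers between 0.896 and 2.29 FPKM, against 2673 and 2724 FPKM for 25 pluripotency genes in the whole-cell libraries. Exosc2 (mm10 chr2:31670715-31681349), the degron-tagged gene, had 2.20 and 2.83 FPKM in chrRNP and 2.74 and 2.88 FPKM in cyto, and its difference of -0.12 did not pass the test (adjusted p = 0.412). On the rescaled values Exosc2 stood at 1.04, above cyto, so no direction is given for it. In bulk libraries of this kind a lower level in fewer cells and a lower level in every cell cannot be told apart.

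The list of nuclear long noncoding RNAs had 14 members, and all 14 were higher in chrRNP, with a median of 2.07 on the deposited scale and 3.35 after rescaling. Of these, 3 passed the member rule through chrRNP alone, Tsix and Kcnq1ot1 among them, so the rule itself set their direction. With a filter of FPKM of 1 or more in both whole-cell libraries instead, the list had 14 genes, all 14 higher on both scales. At 4 h of IAA, in libraries that the member rule did not use, all 14 were again higher, with a median of 2.06. The largest difference belonged to Mir17hg (ENSMUSG00000089726.2, mm10 chr14:115042879-115046727), the host transcript of the miR-17-92 cluster of growth-promoting microRNAs. It had 86.7 and 80.5 FPKM in chrRNP, 48.2 and 40.5 FPKM in np, 3.56 and 3.14 FPKM in cyto and 32.2 and 32.4 FPKM in whole cells. The chrRNP and cyto libraries did not overlap, and the mean was 24.96-fold higher, a difference of 4.28 ± 0.13 (SE, n = 2 and 2, adjusted p = 5.63e-09).

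A host transcript of this kind is cut in the nucleus by Drosha, and the hairpins leave it for the cytoplasm, where Dicer finishes them; the transcript's own level says nothing of the mature microRNAs, which were not measured in these libraries. The RefSeq table (GRCm38.p6) places these mature microRNAs inside the Mir17hg locus, on the plus strand. They are shown because the chrRNP difference is that of the RNA that carries them. Each is written from its 5′ end, with the seed, bases 2 to 8, in capitals:
miR-17-5p: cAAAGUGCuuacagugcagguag
miR-20a-5p: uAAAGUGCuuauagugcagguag
miR-18a-5p: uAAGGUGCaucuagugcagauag
miR-19a-3p: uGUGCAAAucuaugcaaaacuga
miR-19b-3p: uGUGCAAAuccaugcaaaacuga
miR-92a-3p: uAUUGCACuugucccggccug
miR-17-5p and miR-20a-5p share 1 seed, miR-19a-3p and miR-19b-3p share another, and miR-18a-5p and miR-92a-3p have a seed of their own.

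Dleu2, the host of other microRNAs, was also higher in chrRNP. It lies at mm10 chr14:61602839-61682373 (ENSMUSG00000097589.9), where the same table places miR-15a and miR-16-1 on the minus strand, and had 21.04 and 20.3 FPKM in chrRNP and 2.64 and 2.13 FPKM in cyto, a difference of 2.68 ± 0.17 (SE, n = 2 and 2, adjusted p = 4.04e-07). Its guide strands are shown because they have a seed in common:
miR-15a-5p: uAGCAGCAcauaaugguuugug
miR-16-5p: uAGCAGCAcguaaauauuggcg
Mirg, a noncoding transcript of the imprinted Dlk1-Dio3 region that also carries microRNAs, had 67.8 and 56.8 FPKM in chrRNP and 5.99 and 5.24 FPKM in cyto (3.26 ± 0.14, SE, n = 2 and 2, adjusted p = 3.64e-08). Meg3 and Rian lie in the same region. Meg3 had 37.7 and 35.8 FPKM in chrRNP, 64.9 and 71.7 FPKM in np and 7.45 and 5.29 FPKM in cyto, and Rian, a host of small nucleolar RNAs, had 291 and 292 FPKM in chrRNP, 568 and 573 FPKM in np and 123 and 117 FPKM in cyto. Their differences from cyto were 2.37 and 1.28, and both had their highest values in np on the deposited scale. After rescaling, Meg3 stood at 0.33 and Rian at 0.25 for chrRNP minus np, and neither was called, so that order rests on the scale. With the 4 untreated libraries fitted alone, Rian had an adjusted p of 0.0845. The 2 chromatin-acting antisense transcripts in the list had low levels that were lowest in cyto. Tsix, the antisense partner of Xist, had 7.60 and 6.98 FPKM in chrRNP and 0.287 and 0.0516 FPKM in cyto. Kcnq1ot1, which silences an imprinted domain in cis, had 4.42 and 3.81 FPKM in chrRNP, 0.681 and 0.626 FPKM in np and 0.191 and 0.104 FPKM in cyto. Whether the counting used strand was not given in the sources used here, so reads of an antisense gene and of its partner cannot be told apart. The member nearest to 0 was Pvt1, at 0.55.

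Genes named by largest difference in the noncoding classes included clones that no list held. Lrrc75aos2, an antisense transcript, had 12.04 and 18.2 FPKM in chrRNP and was listed at 0.180 and 0 FPKM in cyto. Gm43803, another, had 10.8 and 8.47 FPKM in chrRNP against 1.09 and 0.676 FPKM in cyto (2.50 ± 0.31, SE, n = 2 and 2, adjusted p = 1.14e-05). Gm29362 was listed at 0 in both cyto libraries and both np libraries and had 35.8 and 28.3 FPKM in chrRNP, but its whole-cell values were 26.7 and 0.175 FPKM, it lies within the coding gene Alkbh1, and without chrRNP replicate 1 it missed the threshold (adjusted p = 0.0538). In the other direction, Gm42743 had 9.62 and 21.9 FPKM in chrRNP and 146 and 115 FPKM in cyto (-3.06 ± 0.32, SE, n = 2 and 2, adjusted p = 4.22e-06).

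By annotated class, a fair count needs a filter that neither fraction sets, since a gene that passes only through chrRNP had to be higher there. Among genes with an FPKM of 1 or more in both whole-cell libraries (11302 genes; 12.0% higher and 74.1% lower in chrRNP), the classes separated widely. After rescaling, a setting added after the data were seen, 39.3% of these genes were higher and 36.3% lower. Of 107 genes of the class snoRNA, 99 were higher in chrRNP and 0 were lower. Of 144 genes of the class TEC, regions whose transcripts still await experimental testing, 140 were higher and 1 was lower, with a median of 1.94. Of 27 sense intronic genes, 25 were higher and 0 lower. The lincRNA class had 52 of 121 genes higher and 39 lower, with a median of 0.09. After rescaling 81 were higher and 14 lower, so its balance rests on the scale, while the snoRNA, TEC and sense intronic classes had 101, 142 and 26 higher and 0 lower. Coding genes set the background, with 903 of 9810 higher, 7500 lower and a median of -1.17, and after rescaling 3840 higher and 3505 lower. Processed pseudogenes, which are intronless copies of mRNAs and take part of the reads of their parents, had 31 of 816 genes higher, 721 lower and a median of -2.04.

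**Figure D2:**
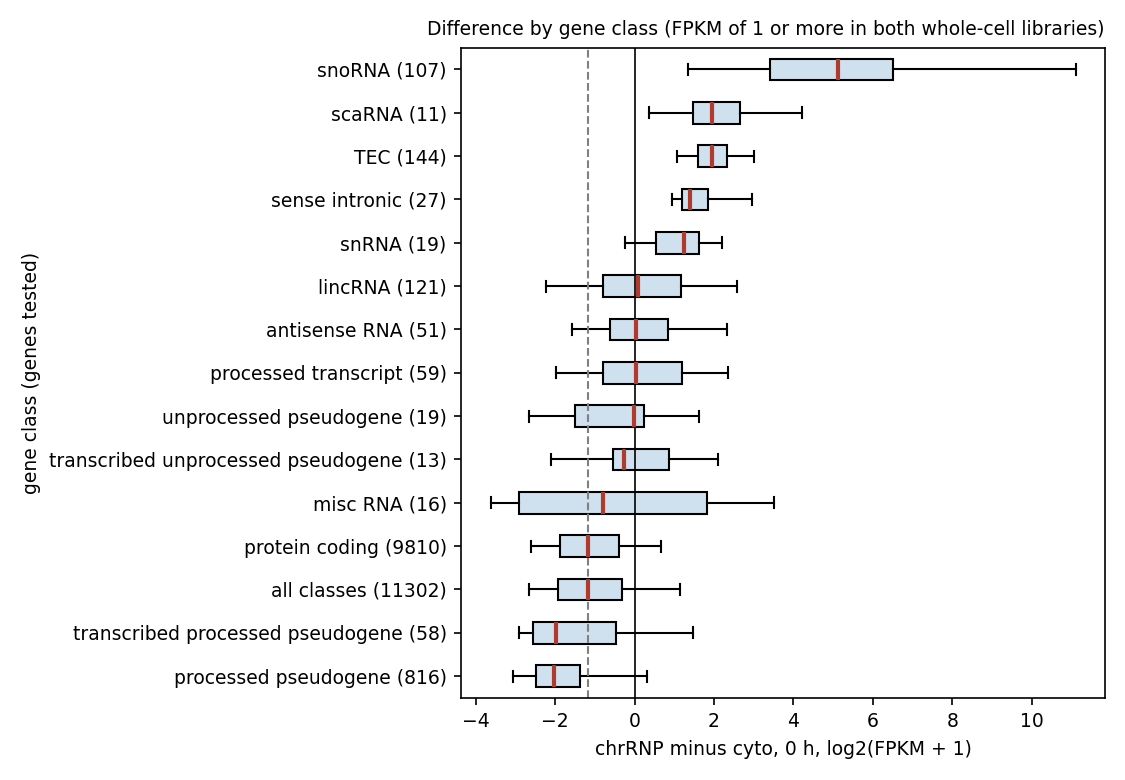
chrRNP minus cyto at 0 h on the log2(FPKM + 1) scale by annotated class, for genes with FPKM of 1 or more in both whole-cell libraries and classes of 10 or more such genes. Red lines are medians, boxes the middle 50%, whiskers the 5th to 95th percentile, and the dashed line the median of all classes; snoRNA, scaRNA, TEC, sense intronic and snRNA genes have medians above 1.

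Many TEC genes lie inside coding genes, the position for which the sense intronic class is named. Of the 357 TEC members, 315 lay inside the span of a coding gene, with a median of 1.55. The 42 TEC members outside any coding gene had a median of 1.34, so the class stood above 0 in either position. Since most TEC members passed through chrRNP alone (335 of 357), they are set against their hosts under the whole-cell filter, a comparison added after the data were seen. Of 121 TEC genes with a host that also passed it, 118 had a larger difference than that host, with a median of 1.98 against -0.97. Under the same filter, the median of 24 sense intronic genes was 1.43 and that of their hosts -0.99, each gene standing above its host. 2700078F05Rik, a TEC gene within Enah, had 25.4 and 22.4 FPKM in chrRNP, 3.89 and 2.97 FPKM in np and 1.33 and 1.05 FPKM in cyto. Enah itself, an actin-binding protein gene, had 57.9 and 71.99 FPKM in chrRNP and 130.3 and 138 FPKM in cyto, so the 2 annotations on the same stretch of genome were placed on opposite sides of 0 (3.51 and -1.04). On the rescaled values Enah stood at 0.51, above 0, and on the 4 untreated libraries alone it was not called (adjusted p = 0.124). B930086L07Rik, within the corepressor gene Ctbp2, had 25.9 and 20.8 FPKM in chrRNP and 1.84 and 1.21 FPKM in cyto, while Ctbp2 had 25.3 and 33.2 FPKM in chrRNP and 93.2 and 105 FPKM in cyto. On the rescaled values Ctbp2 stood at -0.21 and was not called (adjusted p = 0.113), so that its call rests on the scale. These 2 pairs were chosen after their values were seen. A gene inside another's span shares its reads with the unspliced RNA of that host, and gene-level FPKM cannot tell them apart.

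The small RNA classes made up the top of the range. Their FPKM are divided by very short lengths, which makes their levels hard to compare with those of longer genes. Of 96 C/D box snoRNA genes with a Snord symbol, which guide 2′-O-methylation, 33 were members, of which 30 were higher in chrRNP and 0 lower. Of 39 H/ACA box genes, which guide pseudouridylation, 31 were members, of which 26 were higher and 0 lower. In the whole-cell filter the counts were 24 of 27 and 24 of 27. In 14 C/D and 3 H/ACA members both cyto libraries were listed at 0, so no fold is given for those. Snord15b had 9775 and 5635 FPKM in chrRNP, 360.0 and 241 FPKM in np and 79.3 and 34.9 FPKM in cyto (7.11 ± 0.42, SE, n = 2 and 2, adjusted p = 2.45e-07). Snora73a, which lies at mm10 chr4:132352775-132352979, had 31546 and 17991 FPKM in chrRNP, 2570.3 and 3296 FPKM in np and 714 and 559 FPKM in cyto (5.23 ± 0.32, SE, n = 2 and 2, adjusted p = 3.24e-07). For both, the chrRNP libraries were the highest of the 8 and the cyto libraries the lowest. Snord22 and Snord17 had differences of 5.38 and 5.12.

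Small Cajal body RNAs guide the modification of spliceosomal RNAs, and 4 of their 5 members were higher in chrRNP than in cyto, but 0 were higher in chrRNP than in np and 3 were lower. After rescaling 1 was higher than in np and 0 lower, so the contrast with np rests on the scale, on which 82.3% of all members were lower as deposited. Scarna2 had 1541 and 1266 FPKM in chrRNP, 2337 and 2191 FPKM in np and 245 and 269 FPKM in cyto. Scarna10 had 2217 and 1601 FPKM in chrRNP and 1950.5 and 2023 FPKM in np, ranges that overlapped. Rmrp, the RNA of RNase MRP, which cuts ribosomal RNA precursors in the nucleolus, had 46393 and 36577 FPKM in chrRNP, 39768 and 40441 FPKM in np and 5850.3 and 5728 FPKM in cyto (2.83 ± 0.29, SE, n = 2 and 2, adjusted p = 3.53e-06). Terc, the telomerase template RNA, had 951 and 752 FPKM in chrRNP and 228 and 169 FPKM in cyto (2.10 ± 0.24, SE, n = 2 and 2, adjusted p = 6.17e-06). Rnu12, the minor spliceosome's U12, had 777 and 539 FPKM in chrRNP and 109.9 and 151 FPKM in cyto (2.32 ± 0.28, SE, n = 2 and 2, adjusted p = 9.20e-06). Rny1 and Rny3, the small cytoplasmic Y RNAs, lay the other way, with 713 and 1677 FPKM against 9815 and 7827 FPKM in cyto for Rny1 (-3.00 ± 0.43, SE, n = 2 and 2, adjusted p = 3.32e-05) and -3.02 for Rny3. Fitted on all 52885 genes with no filter, Rmrp and Rny3 missed the threshold (adjusted p = 1 and 0.337). Rn7sk, the RNA that holds the elongation kinase P-TEFb inactive, was highest in np on the deposited values, at 83797 and 93279 FPKM, with 16827 and 21632 FPKM in chrRNP and 35977 and 37249 FPKM in cyto. Its difference of -0.94 missed the threshold without chrRNP replicate 1 (adjusted p = 0.142) and turned to 0.62 after rescaling (adjusted p = 0.50), so no direction is given for it.

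Host transcripts of small nucleolar RNAs are spliced RNAs whose introns are processed into the guides, and they are counted here by their exons. Of 17 members, 9 were higher in chrRNP and 6 lower. After rescaling 16 were higher and 0 lower, so their direction rests on the scale. Snhg12 had 105 and 109.6 FPKM in chrRNP, 189 and 197 FPKM in np and 40.9 and 38.5 FPKM in cyto (1.41 ± 0.15, SE, n = 2 and 2, adjusted p = 4.65e-06). Snhg11 had 3.12 and 3.22 FPKM in chrRNP against 0.758 and 0.457 FPKM in cyto (1.38 ± 0.12, SE, n = 2 and 2, adjusted p = 1.53e-06). Gas5, a host that is itself known for a 5′ tract like that of ribosomal protein mRNAs, had 36.3 and 49.7 FPKM in chrRNP, 133 and 127 FPKM in np and 74.4 and 79.04 FPKM in cyto, and Snhg1 had 43.8 and 49.1 FPKM in chrRNP and 78.98 and 82.1 FPKM in cyto. On the deposited scale these 2 were lower in chrRNP (-0.84 and -0.78), and on the rescaled one higher (0.70 and 0.75), and on the 4 untreated libraries alone neither was called (adjusted p = 0.177 and 0.210). Under the whole-cell filter, 77 snoRNA-class genes lay inside a coding gene that also passed it, with a median difference of 5.12 against -1.80 for those coding genes, and all 77 stood above them.

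**Figure D3:**
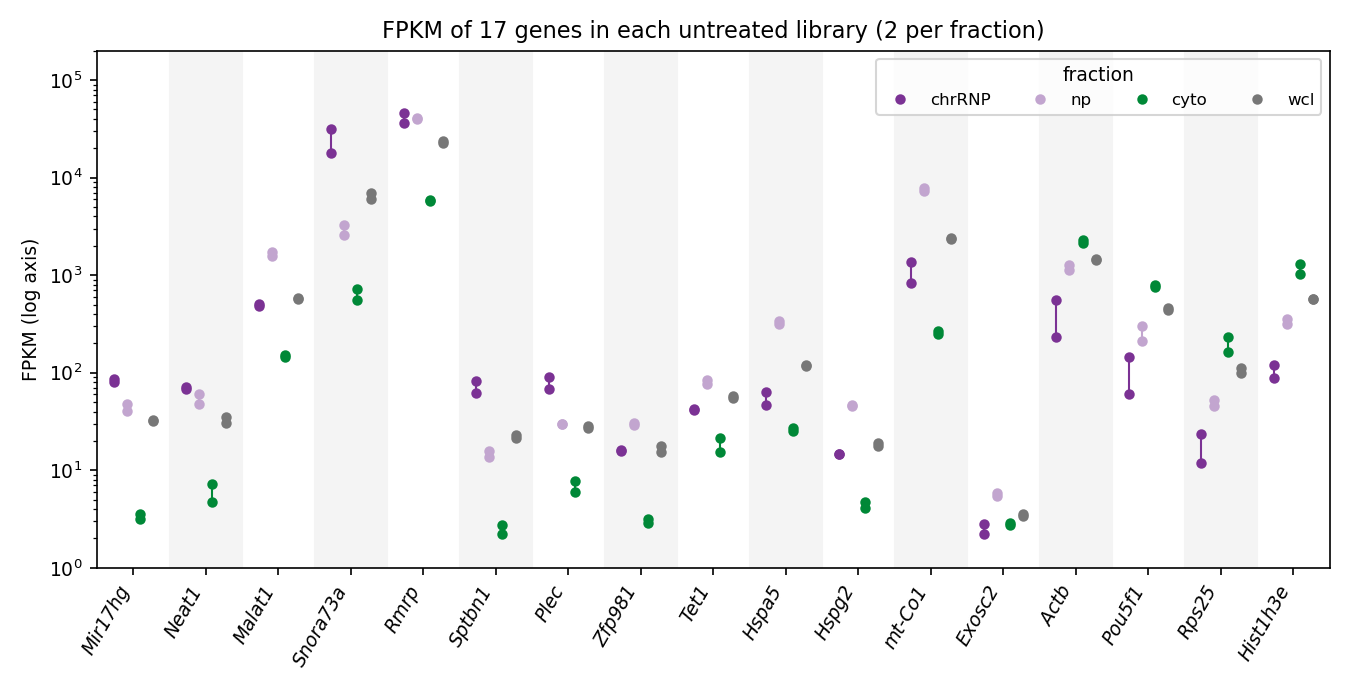
FPKM (log axis) of 17 genes in each untreated library; points are libraries, 2 per fraction, joined by a line. Mir17hg, Snora73a, Sptbn1 and Plec are highest in chrRNP, Malat1, Zfp981, Tet1, Hspa5, Hspg2 and mt-Co1 in np, and Actb, Pou5f1, Rps25 and Hist1h3e in cyto.

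Among coding genes with a name and not a clone number, large cytoskeletal and scaffold proteins were at the top of the range. The clone Gm10800 had a larger difference still, with 94.4 and 91.4 FPKM in chrRNP and 3.69 and 0.454 FPKM in cyto. Sptbn1 (ENSMUSG00000020315.18, mm10 chr11:30099395-30268169), the beta-II spectrin of the membrane skeleton, had 81.6 and 61.97 FPKM in chrRNP, 15.8 and 13.7 FPKM in np, 2.77 and 2.21 FPKM in cyto and 21.3 and 22.8 FPKM in whole cells. Both chrRNP libraries were above every other untreated library, the mean was 28.8-fold that of cyto, and the difference was 4.37 ± 0.15 (SE, n = 2 and 2, adjusted p = 1.20e-08). Macf1, a spectraplakin that links actin to microtubules, had 82.05 and 64.2 FPKM in chrRNP and 4.15 and 2.70 FPKM in cyto (4.08 ± 0.17, SE, n = 2 and 2, adjusted p = 3.13e-08). Flna, filamin A, an actin crosslinker, had 161 and 122 FPKM in chrRNP and 15.4 and 13.5 FPKM in cyto (3.19 ± 0.16, SE, n = 2 and 2, adjusted p = 8.84e-08). Plec (mm10 chr15:76170974-76231378), plectin, which ties intermediate filaments to junctions, had 90.1 and 68.5 FPKM in chrRNP, 29.7 and 30.03 FPKM in np and 7.73 and 5.92 FPKM in cyto (3.36 ± 0.16, SE, n = 2 and 2, adjusted p = 6.69e-08). Iqgap1, a scaffold of actin at the cell cortex, stood at 3.38, Dst, dystonin, a second spectraplakin, at 3.17, and Ppp1r9a, the actin-binding neurabin, at 2.92.

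These genes also stood apart from the other nuclear fraction. The contrast of chrRNP with np uses the same chrRNP libraries as the contrast with cyto, so the calls are given side by side and not as independent. On the deposited scale, 623 members (5.24%) were higher in chrRNP than in np and 9787 (82.3%) lower, and among coding members 75 of 9845 were higher. After rescaling, 2265 members (19.0%) were higher than in np and 2483 (20.9%) lower, and among coding members 1500 were higher and 2314 lower. Sptbn1 was higher in chrRNP than in np by 2.20 ± 0.15 (SE, adjusted p = 4.50e-07), Macf1 by 1.77 ± 0.17 (SE, adjusted p = 3.66e-06) and Plec by 1.37 ± 0.16 (SE, adjusted p = 1.65e-05). Of the 75 coding genes, 56 were also higher than in cyto, and among these were 11 genes of a list of 27 cytoskeletal linkers and crosslinkers. That list was drawn up after these values were seen and supports no claim about its genes; it is given for its spread. Of the 27, 14 were higher in chrRNP than in cyto, from Sptbn1 down to Sptan1 at 0.50, and 8 were lower. On the lower side, Tln1, talin, which couples integrins to actin, had 5.16 and 6.96 FPKM in chrRNP and 19.4 and 15.9 FPKM in cyto (-1.41), Ezr, ezrin, had 11.6 and 18.8 FPKM in chrRNP and 42.2 and 45.4 FPKM in cyto (-1.504), and Myh9, nonmuscle myosin, had 14.3 and 14.7 FPKM in chrRNP and 33.1 and 30.8 FPKM in cyto (-1.09). After rescaling Tln1 stood at 0.011, Ezr at -0.0063 and Myh9 at 0.41, so their direction rests on the scale.

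Other large proteins also stood high against cyto. Dync1h1, the dynein heavy chain, had 61.7 and 47.9 FPKM in chrRNP, 42.7 and 38.9 FPKM in np and 8.74 and 7.16 FPKM in cyto (2.64). Ranbp2, a giant nucleoporin, had 71.95 and 59.2 FPKM in chrRNP, 62.8 and 62.8 FPKM in np and 9.94 and 8.17 FPKM in cyto, with chrRNP and np not told apart as deposited (adjusted p = 0.727). Mki67, the coat protein of mitotic chromosomes, had 21.7 and 25.1 FPKM in chrRNP, 34.3 and 35.3 FPKM in np and 4.40 and 2.80 FPKM in cyto (2.43). After rescaling, all 3 were higher in chrRNP than in np, Dync1h1 by 1.61 (adjusted p = 1.95e-04), Ranbp2 by 1.26 (adjusted p = 6.78e-04) and Mki67 by 0.63 (adjusted p = 0.0107). These 3 were named after their values were seen.

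Genome span went with the difference across coding genes. With the 9845 coding members cut into 10 groups by span, the median difference went from -1.89 (spans of 0.165 to 4.14 kb) to -0.50 (102 to 2257 kb), and the share called higher in chrRNP from 4.67% to 19.4%. The median whole-cell level moved with it, from 12.4 to 4.89 FPKM, and its part in the trend was not tested. Across these genes, Spearman's rho between difference and span was 0.36, a description over genes that share their libraries and are not independent replicates.

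**Figure D4:**
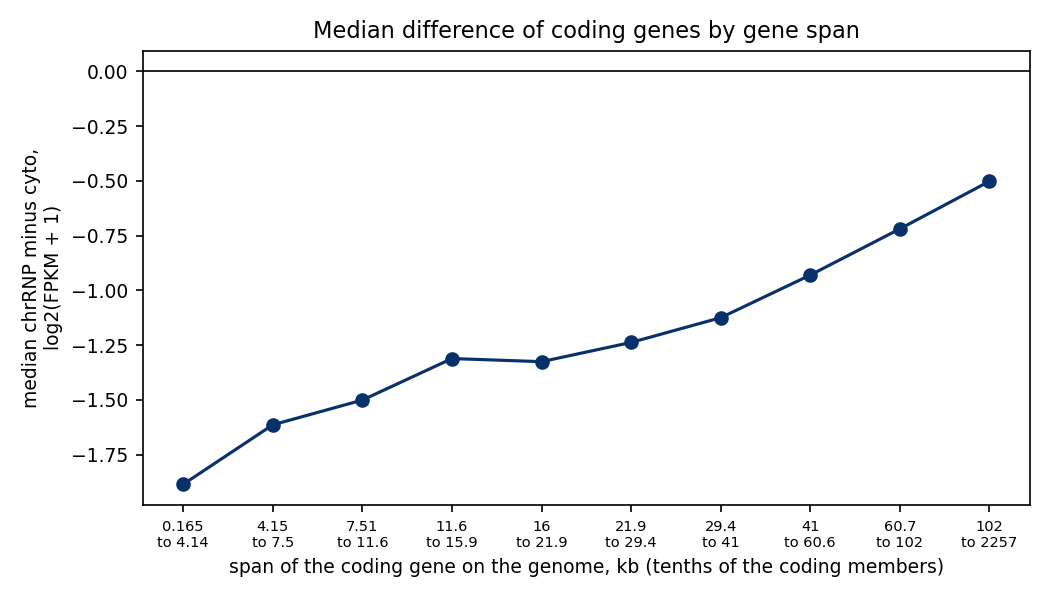
Median chrRNP minus cyto difference at 0 h, log2(FPKM + 1), for the 9845 coding members in 10 groups of like size by genome span (kb, horizontal). The median goes from -1.89 in the shortest group to -0.50 in the longest and is below 0 in all 10.

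mRNAs translated on the ER were higher in np than in chrRNP. All 20 members of the ER chaperone and folding enzyme list were lower in chrRNP than in np, on the deposited and on the rescaled values. Among all members 82.3% and 20.9% were. The list median was -2.52 on the deposited values. Against cyto, 8 were higher in chrRNP and 3 lower (median 0.24), and after rescaling 20 were higher, against 14.7% and 40.0% of all members higher. Hspa5 (mm10 chr2:34771970-34777547), the chaperone BiP, had 46.7 and 63.9 FPKM in chrRNP, 337 and 319 FPKM in np, 25.4 and 26.9 FPKM in cyto and 119.8 and 116 FPKM in whole cells. The order np, whole cell, chrRNP, cyto held without overlap, and its difference from cyto was 1.04 ± 0.19 (SE, n = 2 and 2, adjusted p = 2.48e-04). With the 4 untreated libraries fitted alone the same difference had an adjusted p of 0.0692. Hsp90b1, the ER Hsp90, had 38.1 and 52.99 FPKM in chrRNP, 276 and 256 FPKM in np and 17.4 and 18.4 FPKM in cyto (1.28 ± 0.21, SE, n = 2 and 2, adjusted p = 8.94e-05). Ero1l, the ER oxidase that re-oxidises disulfide isomerase, followed with 1.07.

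Extracellular matrix, adhesion and receptor genes leaned the same way as a list. Of 28 members, 20 were higher in chrRNP than in cyto and 2 lower, with a median of 0.80, and after rescaling all 28 were higher. All 28 were lower in chrRNP than in np on the deposited values and 20 on the rescaled ones, against 82.3% and 20.9% of all members. Hspg2, the basement membrane proteoglycan perlecan, had 14.5 and 14.8 FPKM in chrRNP, 46.2 and 45.5 FPKM in np and 4.67 and 4.10 FPKM in cyto (1.54 ± 0.12, SE, n = 2 and 2, adjusted p = 1.08e-06). Lama5, a laminin alpha chain, had 17.6 and 17.95 FPKM in chrRNP and 6.44 and 5.21 FPKM in cyto. Lama1, another, had 5.60 and 6.14 FPKM in chrRNP and 2.29 and 2.14 FPKM in cyto. For chrRNP minus np after rescaling, Hspg2 stood at -0.41, Lama5 at -0.11 and Lama1 at -0.34, and none of them was called. Fn1, fibronectin, named after its value was seen, stood highest in the list at 1.69. Of the 20 members of the translocon and glycosylation list, 3 were higher and 9 lower, and after rescaling 15 were higher and 2 lower. Its lowest member was Sec61b, a small tail-anchored subunit of the translocon, with 5.93 and 18.1 FPKM in chrRNP and 82.8 and 103 FPKM in cyto (-3.02 ± 0.38, SE, n = 2 and 2, adjusted p = 1.26e-05), and Ost4, a very small subunit of the glycosylation complex, stood at -2.04.

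Mitochondrial RNA was placed like that of the ER group. Of 11 mitochondrially encoded members, 8 were higher in chrRNP than in cyto and 2, the transfer RNAs mt-Tm and mt-Tp, were lower and listed at 0 in both chrRNP libraries. Against np, 10 were lower in chrRNP on the deposited values and 8 on the rescaled ones, against 82.3% and 20.9% of all members. mt-Co1, a cytochrome oxidase subunit, had 829.9 and 1370.5 FPKM in chrRNP, 7341 and 7859 FPKM in np and 251 and 265 FPKM in cyto (2.04 ± 0.27, SE, n = 2 and 2, adjusted p = 1.96e-05). mt-Nd4 and mt-Nd2, subunits of complex I, stood at 2.00 and 1.96. The np and, to a lesser degree, chrRNP fractions thus held RNA of an organelle outside the nucleus, and the part of such membranes in the values of the ER and matrix genes was not tested.

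At the other end of the range were the lists of ribosomal proteins, translation factors, nuclear-encoded mitochondrial proteins, glycolysis, the cytoskeleton and histones. Of 82 cytosolic ribosomal protein genes, 71 were lower in chrRNP and 1 higher, with a median of -2.53. After rescaling 60 were lower and 13 higher. Rps25 had 11.7 and 23.8 FPKM in chrRNP, 52.6 and 45.5 FPKM in np, 230.5 and 164 FPKM in cyto and 113 and 99.5 FPKM in whole cells, so each nuclear library was below each whole-cell one and the mean in cyto was 11.1-fold that in chrRNP (-3.46 ± 0.30, SE, n = 2 and 2, adjusted p = 1.73e-06). Rpl7a had 2.25 and 4.95 FPKM in chrRNP and 59.04 and 37.01 FPKM in cyto (-3.44 ± 0.34, SE, n = 2 and 2, adjusted p = 2.99e-06). The gene on the other side was Rpl9, with 21.3 and 24.5 FPKM in chrRNP and 7.65 and 6.71 FPKM in cyto (1.55). Ribosomal protein genes have many near-identical processed pseudogenes, so single values in this family are uncertain.

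mRNAs of this family are known for a terminal oligopyrimidine (TOP) tract, a C followed by pyrimidines at the very 5′ end, through which mTOR signalling controls their translation. The RefSeq table (GRCm38.p6) gave promoters for 62 of the 82 genes. The tract was searched for on the transcribed strand as a C at the annotated start followed by 4 or more bases that are each C or T, and 14 of the 62 (22.6%) held it, against 3.09% of the 7741 matched coding members and 2.51% of all promoters in the table. A tract was counted only where it began exactly at the annotated start base. Genes whose start lies elsewhere may hold a tract that was missed, so 22.6% is not the share of TOP mRNAs in the family. For the same reason the group without a hit may be mixed. With a hit the median difference was -2.60 and without one -2.23. Over all matched coding members the medians were -1.23 and -1.18. The starts of 4 genes are shown, from 15 bases before to 15 bases from the start, with the tract in capitals, to set genes far below cyto beside 1 that was not. On GRCm38.p6 they lie at chr11:114668565-114668594 (plus strand), chr17:33955651-33955680 (minus), chr2:39005117-39005146 (minus) and chr7:4792950-4792979 (plus):
Rpl38: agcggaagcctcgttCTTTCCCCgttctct
Rps18: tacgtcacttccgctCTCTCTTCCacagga
Rpl35: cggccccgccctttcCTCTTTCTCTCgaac
Rpl28: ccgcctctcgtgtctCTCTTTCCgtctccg
Rpl38 had 7.43 and 22.4 FPKM in chrRNP and 139 and 151 FPKM in cyto (-3.38), Rps18 stood at -3.16 and Rpl35 at -2.59. Rpl28, with a tract as long as that of Rpl38, had 6.84 and 8.12 FPKM in chrRNP and 11.5 and 3.93 FPKM in cyto, 0.11 apart with no call (adjusted p = 0.781). Its cyto libraries lay on both sides of the chrRNP ones, and leaving out cyto replicate 1 gave 0.78 (adjusted p = 0.0237) while leaving out cyto replicate 2 gave -0.56.

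Other mRNAs of the translation machinery lay with the ribosomal proteins. Of 20 further TOP mRNAs and translation factors, 19 were lower in chrRNP and 1 higher (median -2.37; 16 lower and 2 higher after rescaling). Eef1g, an elongation factor subunit, had 13.7 and 24.6 FPKM in chrRNP and 115 and 97.4 FPKM in cyto (-2.46 ± 0.26, SE, n = 2 and 2, adjusted p = 3.90e-06). Eif4a1, the helicase that unwinds 5′ leaders, had 23.2 and 41.2 FPKM in chrRNP and 162 and 172 FPKM in cyto (-2.39). Its paralog Eif4a2 was the exception, with 81.2 and 98.7 FPKM in chrRNP, 212 and 204 FPKM in np and 61.6 and 60.02 FPKM in cyto (0.55). Fitted on the 4 untreated libraries alone, it had an adjusted p of 0.397.

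Nuclear genes for mitochondrial proteins were lower almost without exception. All 78 mitochondrial ribosomal protein genes were lower in chrRNP (67 after rescaling, with 2 higher), among them Mrps14 at -2.63, Mrps6 at -2.23 and Mrpl10 at -2.45. Of 72 oxidative phosphorylation genes, 71 were lower (58 after rescaling, with 2 higher). Atp5e, a small subunit of the ATP synthase, had 5.78 and 21.8 FPKM in chrRNP and 125 and 146 FPKM in cyto (-3.45 ± 0.49, SE, n = 2 and 2, adjusted p = 3.56e-05), and Ndufa11, a complex I subunit, had 2.18 and 4.57 FPKM in chrRNP and 19.5 and 18.3 FPKM in cyto (-2.24). The mRNAs of these organelle proteins thus lay on the side opposite to the RNAs made inside the organelle.

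Glycolysis and the soluble cytoskeleton were alike in this. Of 14 glycolysis members, 13 were lower (11 after rescaling, with 1 higher). Pfkl, a phosphofructokinase, stood at -2.47, Pgk1 at -2.43 and Hk2, a hexokinase that docks on mitochondria, at -1.80. Of 16 actin, tubulin and related genes all 16 were lower on both scales. Actb, beta-actin, had 233 and 558 FPKM in chrRNP, 1133 and 1274 FPKM in np and 2305 and 2144 FPKM in cyto (-2.62 ± 0.35, SE, n = 2 and 2, adjusted p = 2.13e-05), and Tubb2a, a beta-tubulin, had 2.61 and 5.90 FPKM in chrRNP and 28.4 and 25.997 FPKM in cyto (-2.50).

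Replication-dependent histone mRNAs, which have no poly(A) tail and end in a stem-loop, gave the lowest list median. Of 62 members, 60 were lower in chrRNP and 2 higher (59 and 2 after rescaling), with a median of -3.03. Hist1h3e had 87.98 and 119 FPKM in chrRNP and 1304 and 1031 FPKM in cyto, a 11.3-fold gap (-3.49 ± 0.26, SE, n = 2 and 2, adjusted p = 8.31e-07). Hist1h2bm had 78.9 and 139 FPKM in chrRNP and 1080.3 and 1000.5 FPKM in cyto (-3.30 ± 0.27, SE, n = 2 and 2, adjusted p = 1.24e-06), and Hist2h4 2.40 and 5.99 FPKM in chrRNP and 62.9 and 48.2 FPKM in cyto (-3.52). The 2 on the other side were Hist2h3c1 (1.97) and Hist2h3c2 (1.94), with whole-cell values of 1.10 and 1.17 FPKM for the first and 1.42 and 1.59 FPKM for the other. Histone genes are near copies of each other, so how reads were shared among them is uncertain. Exosc6, an exosome subunit encoded by a single exon, was also among the 12 lowest, but its 0.00849 and 2.44 FPKM in chrRNP disagree with each other, and its np libraries hold 5.83e-06 and 6.12e-05 FPKM while whole cells had 13.4 and 12.9 FPKM, so no fold is given for it.

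**Figure D5:**
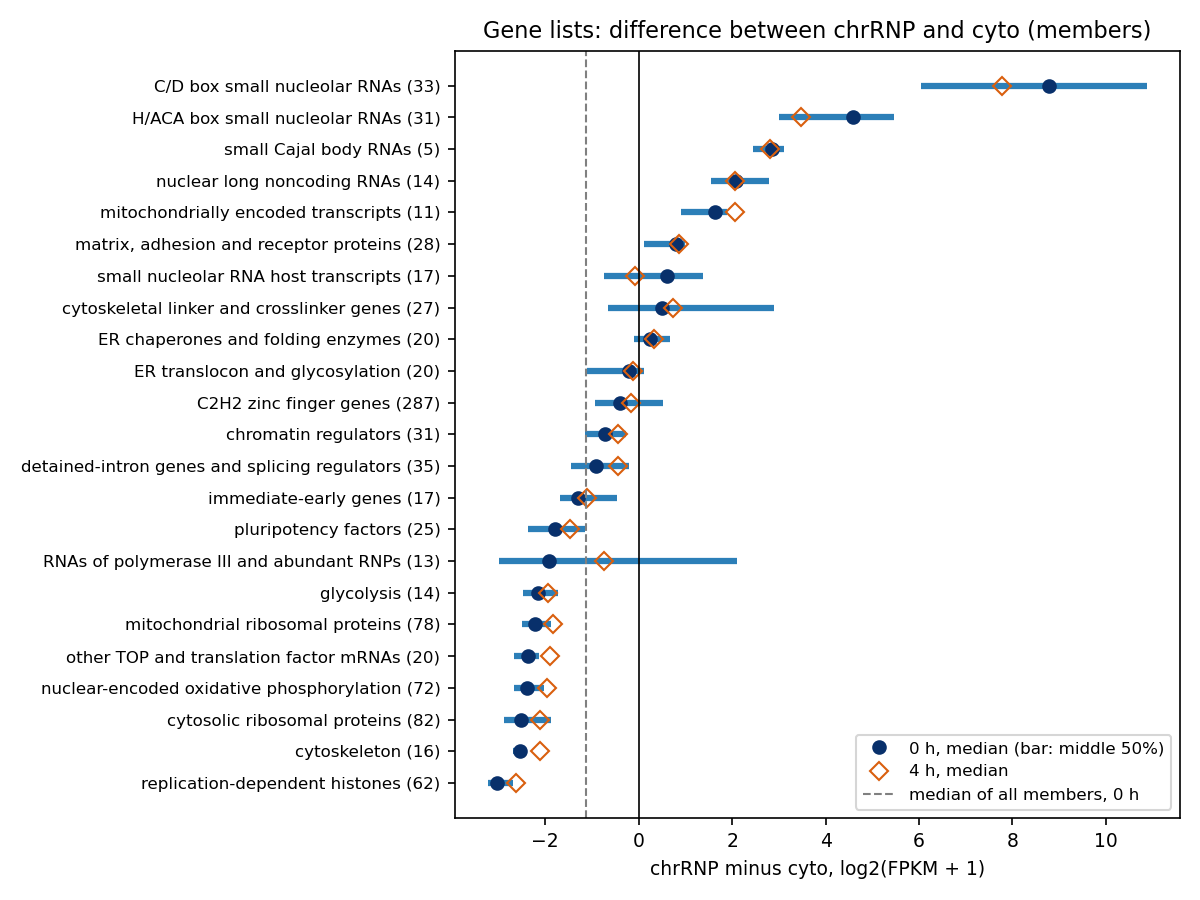
Median difference between chrRNP and cyto for each gene list with 5 or more members (number of members in parentheses), on the log2(FPKM + 1) scale. Filled circles with bars are 0 h medians and the middle 50%, open diamonds 4 h medians from other libraries, and the dashed line the median of all members at 0 h (-1.12); lists run from -3.03 for histones to 8.78 for C/D box snoRNAs, whose median includes 14 members listed at 0 in both cyto libraries.

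Regulators of the ESC state and of chromatin came between these ends. Of 25 pluripotency genes, 21 were lower in chrRNP and 1 higher, with a median of -1.79; after rescaling 13 were lower and 6 higher. Utf1, an ESC chromatin protein, had 23.7 and 44.6 FPKM in chrRNP and 252 and 196 FPKM in cyto (-2.73 ± 0.26, SE, n = 2 and 2, adjusted p = 2.43e-06), and Dppa3 had 1.56 and 3.88 FPKM in chrRNP and 23.9 and 23.8 FPKM in cyto (-2.81 ± 0.24, SE, n = 2 and 2, adjusted p = 1.58e-06). Nanog stood at -2.23 and Sox2 at -1.84. The gene on the higher side was Tet1, which oxidises methylated DNA, with 42.5 and 41.96 FPKM in chrRNP, 84.3 and 77.1 FPKM in np and 21.6 and 15.3 FPKM in cyto (1.17 ± 0.17, SE, n = 2 and 2, adjusted p = 3.76e-05). Of 17 immediate-early genes, 12 were lower and 0 higher, and after rescaling 6 were lower and 5 higher. Among all members 72.9% were lower, and 34.9% after rescaling, so as a list these genes were near the background. Their median was -1.31 against -1.12 for all members. Jund had 6.30 and 12.5 FPKM in chrRNP and 63.5 and 61.8 FPKM in cyto (-2.68).

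Of 31 chromatin regulators, 4 were higher in chrRNP and 22 lower, with a median of -0.72, and after rescaling 22 were higher and 4 lower. The DNA methyltransferases lay on the lower side, Dnmt3a with 4.39 and 7.85 FPKM in chrRNP and 36.5 and 30.4 FPKM in cyto (-2.31 ± 0.22, SE, n = 2 and 2, adjusted p = 2.71e-06) and Dnmt3b at -2.15. Ezh2, the catalytic subunit of Polycomb complex PRC2, stood at -1.72. Kmt2a, a large histone H3K4 methyltransferase, had 3.78 and 3.89 FPKM in chrRNP and 1.55 and 0.811 FPKM in cyto (1.17). Of 35 splicing regulators and genes known to keep detained introns, which are held back in the nucleus unspliced, 5 were higher and 22 lower (23 higher and 6 lower after rescaling). Srsf2, a splicing activator, had 59.3 and 114 FPKM in chrRNP and 395 and 377 FPKM in cyto (-2.21), and Srsf4 and Srsf11 stood at -1.82 and -1.75. Son, a scaffold of nuclear speckles, had 43.95 and 41.7 FPKM in chrRNP and 22.9 and 19.3 FPKM in cyto (0.99). With the 4 untreated libraries fitted alone, Son had an adjusted p of 0.0643.

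C2H2 zinc finger genes encode a large family of DNA-binding proteins, many of which silence retroelements. Of 287 members, 82 were higher in chrRNP and 147 lower, with a median of -0.39, and 193 were higher and 27 lower after rescaling. On chromosome 4, 17 of 24 were higher and 6 lower (median 1.08), while on chromosome 7, 9 of 72 were higher and 46 lower (median -0.59). These chromosomes were picked after their values were seen, and the counts are on the deposited scale alone. Chromosome 17 had 18 of 36 higher and 11 lower, chromosome 13 had 11 of 25 higher and 7 lower, and chromosome 6 had 0 of 13 higher and 11 lower. Of the higher genes on chromosome 4, all but Zfp292 lie within mm10 chr4:145510759-147848366. Genes of that stretch that were not higher are not given. Zfp981 (mm10 chr4:146502027-146539395) had 15.8 and 15.98 FPKM in chrRNP, 30.2 and 29.2 FPKM in np and 3.15 and 2.89 FPKM in cyto (2.07 ± 0.11, SE, n = 2 and 2, adjusted p = 1.15e-07). Zfp991 had 8.02 and 7.43 FPKM in chrRNP and 1.27 and 1.24 FPKM in cyto (1.95 ± 0.10, SE, n = 2 and 2, adjusted p = 7.81e-08), and Zfp600 7.13 and 6.89 FPKM in chrRNP and 1.19 and 1.37 FPKM in cyto (1.81 ± 0.10, SE, n = 2 and 2, adjusted p = 1.29e-07). All 3 were highest in np on the deposited values, and after rescaling none of the 3 was called between chrRNP and np. The genes of this cluster are near copies, so reads may be shared between them. Zfp296, an ESC zinc finger gene on chromosome 7 named after its value was seen, had 2.22 and 4.56 FPKM in chrRNP and 23.6 and 21.1 FPKM in cyto (-2.46).

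The same contrast in cells after 4 h of IAA came from 4 other libraries of the same fit. Of the 1744 genes higher in chrRNP at 0 h, 1548 (88.8%) were also higher at 4 h, where 1807 were called (15.2%), so the shared genes were 85.7% of those. Of the 8675 lower genes, 8035 (92.6%) were also lower, 97.7% of the 8221 called at 4 h (69.1%). Opposite calls were made for 2 and 9 genes. The 2 time points differ in treatment, so the overlap is not a replicate of the untreated cells alone.

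Other tables of untreated cells give further readouts of the same genes, normalized separately and set side by side with no test. Coding members were ordered into 5 groups by their difference. From the lowest to the highest group, the median log2 ratio of poly(A) RNA from the RNP mesh, which is what remains of nuclei digested with DNase I and washed with urea, detergent and concentrated salt, to poly(A) RNA of whole cells went from -0.84 to 0.21. The median log2 ratio of nascent RNA, labelled by a short pulse of ethynyl uridine and given as RPKM over the whole gene span with its introns, to whole-cell FPKM went from -4.21 to -2.28. Over all 9845 coding genes, Spearman's rho with the difference was 0.40 for the mesh ratio and 0.55 for the nascent ratio, again a description across genes; the whole-cell level enters the nascent ratio and was itself lower in the highest group (a median of 5.00 FPKM) than in the lowest (27.5 FPKM). Plec had 94.9 and 111 FPKM in the mesh pellet and 11.5 and 12.6 FPKM in whole-cell poly(A) RNA. Sptbn1 had 131 and 71.5 FPKM in the mesh pellet and 23.7 and 25.05 FPKM in whole-cell poly(A) RNA. In these libraries the mesh values of both genes were above the whole-cell ones. Neat1 had 3472 and 4064 FPKM in the mesh pellet and 139 and 139 FPKM in whole-cell poly(A) RNA, whereas Rps25 had 18.7 and 9.30 FPKM in the pellet and 186 and 198 FPKM in whole cells. Other genes named above as high in chrRNP went the other way in this readout. Dleu2 had 2.74 and 2.45 FPKM in the pellet and 6.82 and 8.37 FPKM in whole cells. For Ranbp2 the values were 26.4 and 14.6 FPKM in the pellet and 37.0 and 36.4 FPKM in whole cells.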

How the data were processed

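The deposited table gives FPKM per gene for 16 libraries in 8 groups of 2 (chrRNP, np, cyto and wcl at 0 and 4 h). Per the submitters' processing notes the authors used TopHat2 2.0.11, Cufflinks 2.0.2 and bedtools with mm10. RNA spike-ins were added by cell number per the labels; the table holds 0 rows named for them, and whether they scaled the FPKM was not given in the sources used here. No counts are given, and low values could not be resolved into whole reads, so depth is unknown. The nascent table holds RPKM deposited by the authors, who list Trim Galore besides.

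Members had FPKM of 1 or more in 2 of the 4 untreated chrRNP and cyto libraries. log2(FPKM + 1) of all 16 libraries was fitted with limma 3.58.1 (R 4.3.3), moderated with a trend and tested on simulated data; p-values were adjusted over all members. Named genes were the 12 largest differences each way among called genes with non-overlapping libraries and a mean of 5 FPKM or more in the higher group (clones, pseudogenes and small RNAs passed over), the 3 largest each way in 4 long noncoding classes, Neat1, Malat1, Exosc2, and the 3 smallest p-values of each list. The rule gave 83 of 126 named genes, of which the text prints part; the others were chosen after their values were seen. Members and lists were chosen with earlier results of these data known. Same-numbered replicates were not paired. A gene that the rule gave is not reported here.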

Additional observations from a re-analysis of the deposited data

Results flagged for a closer look

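Snhg4, a host of small nucleolar RNAs, had a difference between chrRNP and cyto that was not the same at 0 h and after 4 h of IAA, by limma's test of the difference between the 2 contrasts. It had 35.5 and 40.5 FPKM in chrRNP and 9.55 and 7.10 FPKM in cyto at 0 h, and 88.7 and 101 FPKM in chrRNP and 77.4 and 83.8 FPKM in cyto at 4 h. The contrast went from 2.07 to 0.23, a change of -1.84 ± 0.26 (SE, limma adjusted p = 0.0190). Over all 11893 members 14 passed this test, 10 towards chrRNP and 4 towards cyto.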

How the results depend on the processing

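On the counts of called genes, rescaling the libraries changed the picture: 4753 genes were higher in chrRNP and 4153 lower, against 1744 and 8675. The other alternatives stayed within 1.5 times. Leaving out a library of either group gave 1569 to 1756 higher and 8117 to 8848 lower genes. A fit with replicate block, which the numbers do not justify (same-numbered chrRNP and cyto libraries correlated at 0.157 in their deviations, cyto and np at 0.042), gave 1724 higher and 8650 lower and changed no call of a named gene. A pseudocount of 0.1 gave 1741 and 8656, no filter 2517 and 8810, and the 4 untreated libraries alone 1509 and 8085. Rescaling turned the direction of Gas5 (0.70), Snhg1 (0.75), Rn7sk (0.62), Exosc2 (1.04), Enah (0.51), Tln1 (0.011) and Myh9 (0.41). Rescaling with the whole-cell filter, added after the data were seen, gave 4438 higher and 4100 lower genes. That setting turned Gas5 (0.68), Snhg1 (0.74), Rn7sk (0.61), Exosc2 (1.03), Enah (0.49) and Myh9 (0.39). With or without the whole-cell filter, rescaling ended the calls of Ezr, Ctbp2, AY036118, Tln1 and Rn7sk and made 1 for Rpl28. The 4 untreated libraries alone ended those of Rian, Gas5, Snhg1, Rn7sk, Hspa5, Enah, Son and Eif4a2. Fitting with no filter ended the calls of Rmrp, Rn7sk, Gm29362, AY036118 and Rny3. Without chrRNP replicate 1 Rn7sk and Gm29362 missed the threshold. Leaving out 1 library gave -0.25 to 0.0067 for Exosc2, turned without chrRNP replicate 1, and -0.56 to 0.78 for Rpl28. Rpl28 turned without cyto replicate 2 and, at -0.0022, without chrRNP replicate 2, and passed the test without cyto replicate 1. The cause was not tested. Depth is unknown, so no count limit can be given for genes listed at 0.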
